A study of Arabidopsis thaliana with 12 samples.

Results

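A total of 139 loci of the 28775 measured stood higher in Arabidopsis thaliana root meristems after 1 h of dexamethasone (DEX) and lay within set bounds of the control level at 4 h. They were chosen on CPM, a locus's counts scaled to a common library total. Loci had to average at least 2 CPM over all 12 libraries, which left 17491. The log2 ratio of the mean at 1 h to the control mean, each with 0.5 CPM added, had to be at least 0.6. The same ratio at 4 h had to lie between -0.3 and 0.3, and the lowest 1 h DEX library had to exceed the highest control library. These values are called the 1 h and 4 h log2 ratios below and describe the choice. They were not tested.

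The seedlings were of the background Col-0 and carried pRPS5A::DOF2.1-GR in every group, the control included. The RPS5A promoter is active in dividing cells, and it drives the zinc finger transcription factor DOF2.1 fused to the hormone-binding part of the glucocorticoid receptor (GR). DEX, a synthetic glucocorticoid, lets such a fusion enter the nucleus. Seedlings grew for 5 days at 22 °C, were placed on 10 µM DEX for 1, 2 or 4 h, and each sample pooled 300 root tips. The 4 groups, with 3 biological repeats each, were DEX for 1 h, DEX for 2 h, DEX for 4 h and a control at 1 h. All DEX groups share that control, and neither controls at the later times nor DEX-treated plants lacking the construct were analysed here. Hence the effects of DEX itself and of DOF2.1 cannot be told apart at any of the 3 times, nor can that of elapsed time at 2 h and 4 h, and the labels do not say whether the control seedlings were moved to fresh medium.

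DOF proteins form a plant family that binds DNA at a short AAAG core and takes part in vascular development. In the root tip, cell files of the vascular cylinder arise from the meristem, and the protophloem is the first of them to differentiate. There the small peptide CLE45 and its receptor BAM3 hold differentiation back, whereas the polar membrane protein OPS promotes it. Auxin, made by YUCCA enzymes and moved by membrane carriers, patterns the same tissue.

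Total counts per library lay between 14142082 and 17522834. The locus of DOF2.1, AT2G28510, had 76.4, 74.8 and 58.4 CPM after 1 h of DEX and 89.7, 89.2 and 80.5 CPM in control libraries. It had 67.6, 61.9 and 58.7 CPM at 2 h, and 52.6, 54.8 and 43.1 CPM at 4 h. By edgeR, its log2 changes against the control were -0.34, -0.41 and -0.73 at 1, 2 and 4 h (adjusted p = 0.039, 0.0050 and 2.9e-05). Reads of the construct and of the endogenous gene cannot be told apart at this locus, and the level does not report nuclear entry. The 7 meristem markers (PLT1, PLT2, WOX5, SYP111, CYCB1;1, SCR and SHR) were all detected. They summed to between 195 and 203 CPM in 1 h DEX libraries and to between 228 and 252 CPM in controls, with 0 of the 7 higher and 3 lower at 1 h by edgeR. The 4 green-tissue markers stayed at or below 17.0 CPM in sum. Markers of root hairs (3 genes) summed to between 101 and 103 CPM at 1 h and between 110 and 133 CPM in controls. Xylem markers (4 genes) summed to between 197 and 258 CPM at 1 h and between 203 and 248 CPM in controls. At 2 h, 4 of the 7 meristem markers, 2 of the 3 of root hairs and 3 of the 4 of xylem were called lower, and 1 meristem marker higher. At 4 h the lower counts were the same, while 2 meristem markers and 2 of the 3 green-tissue markers tested were higher. At 1 h, 5.03% of all loci tested were called higher and 4.59% lower. The shares were 16.5% and 18.5% at 2 h, and 24.7% and 25.6% at 4 h. None of these markers was among the 139 loci. Their part in the results was not tested.

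The 1 h DEX libraries were not alike, and this bears on every 1 h value. Replicate 1 was the highest of the 3 in 110 of the 139 loci (79.1%, against 48.0% of the 17491 loci), and replicate 3 was the lowest in 109 (78.4%, against 51.4%). The median level relative to the control mean was 0.99, 0.74 and 0.58 on the log2 scale in replicates 1, 2 and 3. Replicates 1 and 3 also differed most over all genes, with a chi-square per gene of 19.5, whereas the other 11 replicate pairs of the series had 3.05 to 8.41. Chosen without replicate 1, the rule found 102 loci, of which 88 are among the 139. Without replicate 2 it found 146 (132 shared), and without replicate 3 it found 223 (136 shared). In all, 53 loci were found whichever of the 9 libraries of the 1 h, 4 h and control groups was left out.

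**Figure D1:**
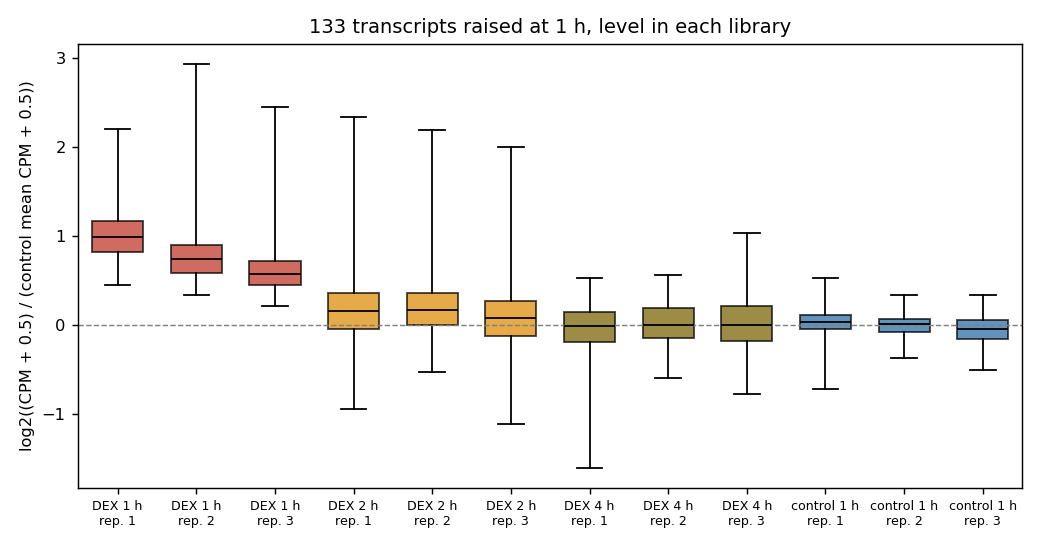
Level of each of 133 transcripts in each library, as log2 of CPM + 0.5 over the control mean + 0.5. Boxes span the quartiles with the median as a line, whiskers the full range, and loci that share their reads are counted once. The 3 DEX 1 h boxes step down between replicates, and the DEX 4 h boxes centre on 0, as the rule fixes.

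The 139 loci stand for 133 transcripts. Loci AT5G64341, AT5G64342 and AT5G64343 carry the same counts as SAC51 within 0.1 count, and AT5G09461, AT5G09462 and AT5G09463 the same as bHLH143, so that each gene's reads were split in equal shares over 4 loci. The other 133 were matched in RefSeq by locus tag, all as protein coding. The 1 h log2 ratio ran from 0.60 to 2.56 with a median of 0.76, a 1.69-fold difference, and 23 loci reached 1. Mean levels at 1 h ran from 2.96 to 246 CPM with a median of 17.0. As the rule requires, 1 h DEX and control libraries did not overlap at any of them, which held for 15% of the 17491 loci. edgeR called 123 of the 139 higher at 1 h, where 5.03% of the 19733 loci tested were called higher and 4.59% lower. That comparison chose the loci, so nothing is read from it.

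Just inside the 1 h threshold were TGA3 (0.603) and AT1G58420 (0.603), and just outside it SUS3 (0.599) and AT1G72800 (0.585). At the lower 4 h bound, AT5G35110 (-0.288) and NAC097 (-0.285) were taken, but AT1G07200 (-0.316) and AT4G27560 (-0.319) were not. At the upper bound, CRK3 (0.296) and AT1G77520 (0.295) were taken, whereas the cytokinin oxidase gene CKX6 (0.3002) and UGT74F1 (0.303) were left out.

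Because DOF proteins bind an AAAG core, the sequence upstream is shown for 5 of the genes described below, namely 3 regulators of the protophloem and the signalling genes SAC51 and SMAX1 (AT5G57710). Each stretch is the 250 bases before the annotated gene start, read 5′ to 3′ on the gene's strand from RefSeq TAIR10.1. The counts carry no coordinates and the submitters' notes name TAIR10, so positions are those of RefSeq. Capitals mark AAAG and its reverse complement CTTT. None of the 5 stretches overlaps another annotated gene. They lie at chr5:21429496-21429745 (MAKR5, minus strand, 13 matches), chr4:10949323-10949572 (BAM3, plus strand, 13 matches), chr3:2771376-2771625 (OPS, minus strand, 5 matches), chr5:25733314-25733563 (SAC51, minus strand, 7 matches) and chr5:23384005-23384254 (SMAX1, plus strand, 7 matches).
MAKR5: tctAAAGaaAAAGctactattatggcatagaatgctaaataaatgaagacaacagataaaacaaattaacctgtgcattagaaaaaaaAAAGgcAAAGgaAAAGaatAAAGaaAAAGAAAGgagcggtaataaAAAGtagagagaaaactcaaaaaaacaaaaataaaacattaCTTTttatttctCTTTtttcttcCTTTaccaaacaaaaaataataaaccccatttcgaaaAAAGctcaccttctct
BAM3: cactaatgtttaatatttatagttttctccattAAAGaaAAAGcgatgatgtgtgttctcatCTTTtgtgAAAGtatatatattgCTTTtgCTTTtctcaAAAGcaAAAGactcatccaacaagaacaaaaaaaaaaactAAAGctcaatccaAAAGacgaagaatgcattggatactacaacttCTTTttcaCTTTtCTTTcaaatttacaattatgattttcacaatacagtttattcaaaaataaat
OPS: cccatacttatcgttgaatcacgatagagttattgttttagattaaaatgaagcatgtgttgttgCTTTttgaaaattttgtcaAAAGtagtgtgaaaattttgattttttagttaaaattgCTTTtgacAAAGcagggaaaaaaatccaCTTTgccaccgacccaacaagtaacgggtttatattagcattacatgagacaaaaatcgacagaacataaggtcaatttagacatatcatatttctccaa
SAC51: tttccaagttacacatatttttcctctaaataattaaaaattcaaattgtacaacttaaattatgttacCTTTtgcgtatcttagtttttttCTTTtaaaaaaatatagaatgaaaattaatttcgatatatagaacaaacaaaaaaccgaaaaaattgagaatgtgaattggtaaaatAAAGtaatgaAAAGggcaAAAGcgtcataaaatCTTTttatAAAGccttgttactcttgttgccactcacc
SMAX1: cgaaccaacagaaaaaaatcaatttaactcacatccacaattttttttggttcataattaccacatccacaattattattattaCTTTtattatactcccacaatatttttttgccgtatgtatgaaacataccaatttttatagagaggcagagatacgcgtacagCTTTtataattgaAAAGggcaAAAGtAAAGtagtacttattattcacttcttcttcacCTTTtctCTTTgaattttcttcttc
Over all 133 matched genes, AAAG on either strand occurred 5.45 times on average in the 250 bases (median 5), against 4.09 times (median 4) in the 17261 protein-coding genes that averaged at least 2 CPM. Nearly every stretch holds one, 98.5% of the 133 and 97.9% of the 17261. The 133 stretches also had a lower median GC content, 28.8% against 31.2%, and its part in the motif count was not tested. TATAAA, which can share bases with AAAG, was found on either strand in 58.6% against 46.4%. The auxin response element TGTCTC was found in 15.8% against 10.5%, and GGCCCA, an element common before ribosomal and housekeeping genes, in 5.26% against 17.4%. GCCGCC, which ERF factors bind, was found in 0 of 133 and in 1.95% of the 17261. The other 7 motifs were searched on both strands too. CACGTG was found in 6.77% against 7.34%, TTGAC in 41.4% against 45.2%, CCGAC in 12.03% against 13.1% and CGCGTT in 3.76% against 2.76%. AATATCT was found in 11.3% against 9.87%, GAANNTTC in 7.52% against 9.18% and AACCCTA in 3.76% against 5.22%. These are matches of letters, and none was tested.

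Of the regulators of the protophloem, MAKR5, BAM3 and OPS met the rule. MAKR5, a membrane-associated protein that amplifies the response to CLE45, had 23.9, 14.95 and 11.4 CPM at 1 h, 5.96, 8.76 and 6.71 CPM at 2 h, 5.66, 6.07 and 5.81 CPM at 4 h, and 5.76, 6.33 and 6.31 CPM in controls. The 1 h libraries lay above all 9 others, and the 2 h libraries already overlapped the controls. In pooled root tips, fewer cells of a type and less RNA per cell cannot be told apart. BAM3, the receptor kinase for CLE45, had 125, 83.7 and 68.4 CPM at 1 h, 48.3, 44.7 and 41.98 CPM at 2 h, 35.7, 41.9 and 38.2 CPM at 4 h, and 42.6, 45.6 and 44.7 CPM in controls. Its 2 h change against the control was 0.07 ± 0.16 (log2, SE), with an adjusted p of 0.75 in edgeR's quasi-likelihood test. The rule also used the control libraries, which makes a higher 2 h call likelier for each chosen locus, here and below. OPS (OCTOPUS) had 43.0, 36.0 and 32.9 CPM at 1 h, 23.6, 20.4 and 22.1 CPM at 2 h, 20.7, 21.5 and 19.1 CPM at 4 h, and 19.9, 19.7 and 16.7 CPM in controls. OPS was still called higher at 2 h, by 0.28 ± 0.10 with an adjusted p of 0.037, but 6 of its 12 alternatives lost that call, with adjusted p-values from 0.018 to 0.15. With replicate 1 left out, the 1 h log2 ratios were 1.04 for MAKR5, 0.77 for BAM3 and 0.86 for OPS.

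**Figure D2:**
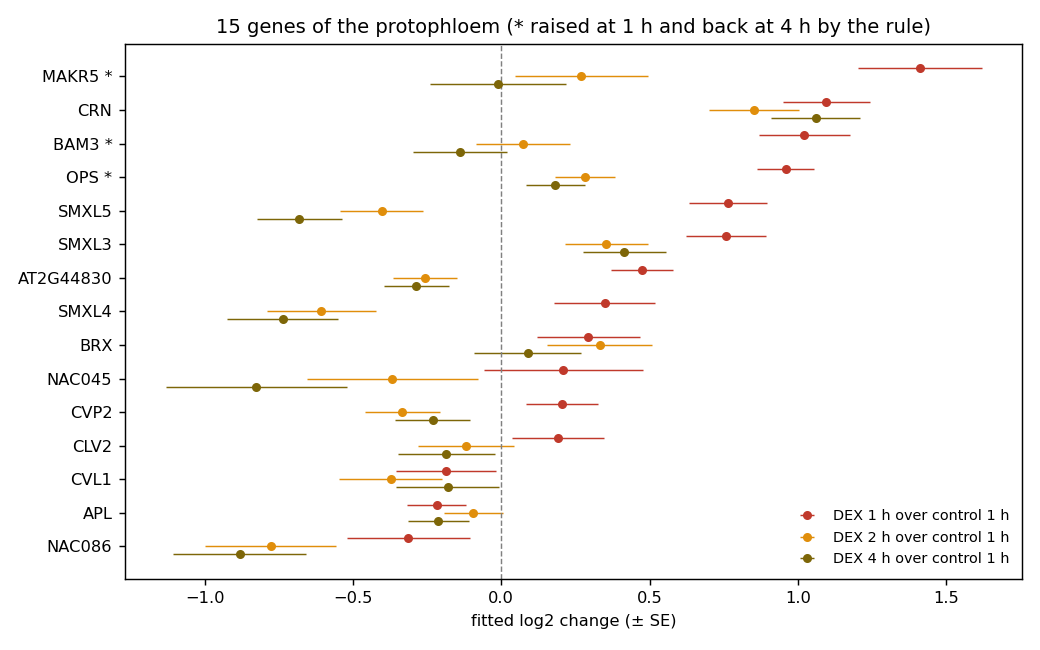
Fitted log2 change (edgeR, with its SE) of 15 protophloem genes at 1, 2 and 4 h of DEX over the control. Stars mark MAKR5, BAM3 and OPS, whose 1 h values lie near or above 1 while their 4 h values lie between -0.14 and 0.18. All 3 comparisons share the control libraries.

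The 15 protophloem genes were listed after values had been seen, so their counts are not independent evidence. By edgeR, 7 of the 15 were higher and 0 lower at 1 h, 2 were higher and 4 lower at 2 h. Over all loci tested, 5.03% were higher and 4.59% lower at 1 h, and 16.5% and 18.5% at 2 h, so that the 2 h counts are near the share over all loci. CRN, a pseudokinase needed for CLE peptide signals, was also higher at 1 h (log2 change 1.096) but was still 0.85 higher at 2 h and 1.06 higher at 4 h. SMXL3, SMXL4 and SMXL5 act redundantly in phloem formation. SMXL5 was 0.76 higher at 1 h but 0.40 lower at 2 h and 0.68 lower at 4 h, and SMXL3 was 0.76 higher at 1 h and 0.42 higher at 4 h. NAC045 and NAC086, which act late in sieve element differentiation, had 1 h changes of 0.21 and -0.31 that were not called.

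Auxin genes among the loci included YUC6, IAA27 (listed as PAP2) and AUF1. YUC6, an enzyme of auxin synthesis, had 25.6, 14.2 and 12.1 CPM at 1 h, 7.92, 6.40 and 5.997 CPM at 2 h, 8.41, 7.93 and 8.13 CPM at 4 h, and 10.2, 8.18 and 6.99 CPM in controls. Its 2 h libraries overlapped the controls, with a change of -0.27 ± 0.25 (adjusted p = 0.43), and without replicate 1 its 1 h ratio was 0.61. The F-box gene AUF1 (1 h ratio 0.60) and the Aux/IAA repressor gene IAA27 (0.84) dropped below the threshold without replicate 1, to 0.51 and 0.48. Of 19 genes of auxin transport and synthesis, listed after values had been seen, 14 were tested. Of these, 6 were higher and 3 lower at 1 h, and 2 were higher and 4 lower at 2 h (over all loci, 5.03% and 4.59% at 1 h, and 16.5% and 18.5% at 2 h). Among them, PIN2 (listed as EIR1) was 1.20 lower at 1 h and PIN7 was 0.52 higher.

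**Figure D3:**
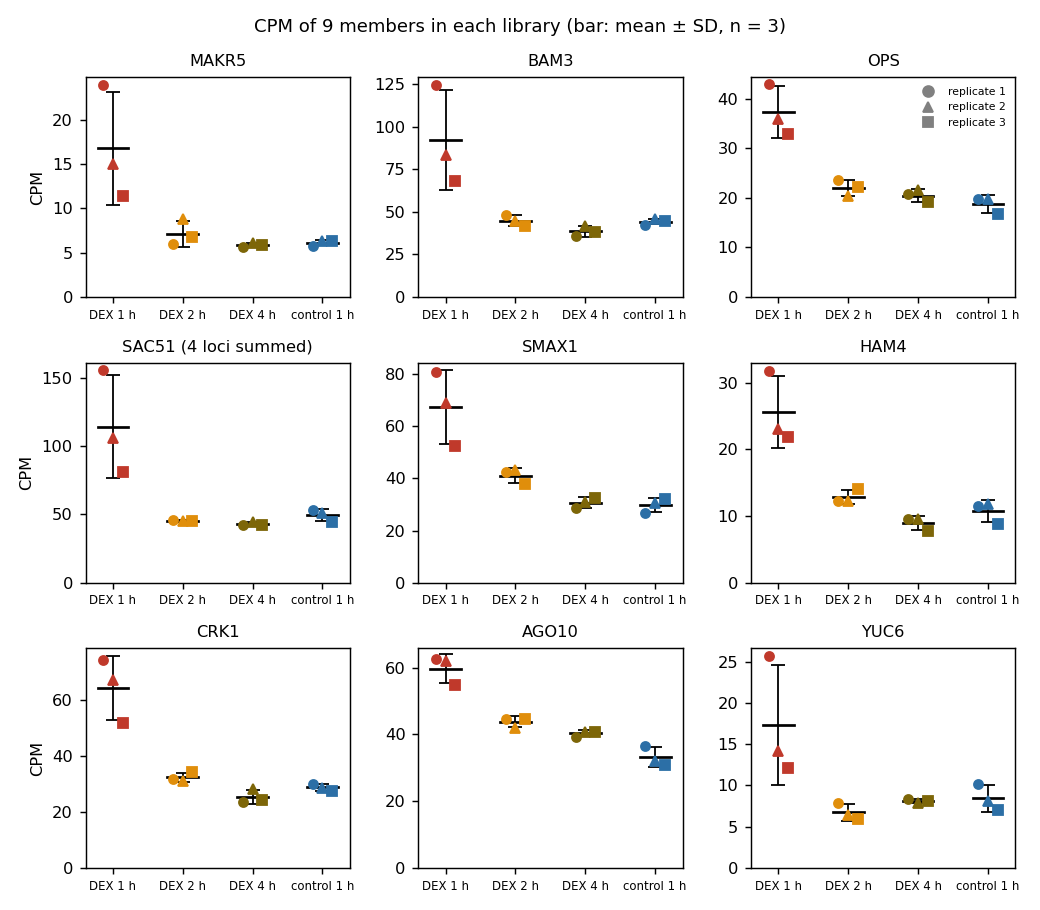
CPM of 9 genes in every library, with replicate numbers as symbols and the mean ± SD (n = 3) as bars. DEX 1 h points lie above all control points in each panel. SMAX1, OPS, HAM4, CRK1 and AGO10 points also lie above the controls at 2 h, and replicate 1 is the highest at 1 h in each panel.

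SAC51 encodes a bHLH transcription factor that acts downstream of thermospermine, a polyamine that limits xylem formation. Summed over its 4 loci, SAC51 had 156, 106 and 81.2 CPM at 1 h, 45.7, 45.4 and 45.3 CPM at 2 h, 42.002, 44.5 and 42.2 CPM at 4 h, and 53.0, 50.7 and 44.3 CPM in controls. The spread at 1 h was wide (SD 37.8 CPM around a mean of 114), while the other groups had SDs of 0.230 to 4.49 CPM. Its relative bHLH143 had 29.1, 22.0 and 19.8 CPM at 1 h over its 4 loci, 14.4, 13.7 and 15.6 CPM at 2 h, 14.4, 14.7 and 12.6 CPM at 4 h, and 14.1, 14.03 and 13.8 CPM in controls. Of the 5 genes listed with SAC51, again after values were seen, AT5G50010 and AT1G29950 were 0.67 and 0.60 lower at 2 h than in controls. ACL5, the thermospermine synthase gene, was 1.64 lower at 2 h than in controls. ACL5 was also 0.70 lower at 1 h.

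SMAX1, a repressor of karrikin responses, had 80.8, 69.1 and 52.3 CPM at 1 h, 42.5, 43.1 and 37.7 CPM at 2 h, 28.6, 30.8 and 32.7 CPM at 4 h, and 26.8, 30.6 and 31.9 CPM in controls. At 2 h it was 0.52 ± 0.11 higher than in controls (edgeR, adjusted p = 0.003). At 4 h it was lower than at 2 h by 0.42 ± 0.11 (adjusted p = 0.040). The rule held the 4 h level near the control, so the direction from 2 h to 4 h follows largely from the choice, also for HAM4 below. The SMAX1 family was listed after values had been seen, like the HAM and CRK families. Of its 8 genes, 5 were called higher and 0 lower at 1 h, where 5.03% and 4.59% of all loci tested were. The family includes SMXL3, SMXL4 and SMXL5, which were also counted with the protophloem genes, so the 2 lists are not separate. At 2 h, 2 of the 8 were higher and 2 lower, where 16.5% and 18.5% of all loci were. SMXL2, the closest relative of SMAX1, had a 1 h ratio of 1.20 but a 4 h ratio of 0.42, outside the rule. HAM4, a GRAS transcription factor of meristem maintenance, had 31.8, 23.1 and 21.9 CPM at 1 h, 12.2, 12.2 and 14.01 CPM at 2 h, 9.55, 9.54 and 7.79 CPM at 4 h, and 11.5, 11.8 and 8.78 CPM in controls. Its 2 h change was 0.31 ± 0.14 (adjusted p = 0.11), and at 4 h it lay 0.51 ± 0.15 below the 2 h level (adjusted p = 0.048). Of the 4 HAM genes, only HAM1 was also called higher at 1 h, by 0.34. At 2 h, 0 of the 4 were called higher and 1 lower (16.5% and 18.5% of all loci). At 4 h, 0 were higher and 3 lower (24.7% and 25.6% of all loci).

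By the words of their RefSeq product names, 18 of the 139 loci (12.9%) were grouped as transcription regulators, against 6.56% of the 17491 loci. Such words do not settle what a protein does. At 2 h, 4 of the 18 were called higher, where 26.6% of the 139 and 16.5% of all loci tested were. The largest 1 h ratios among the 18 were those of HAM4 (1.22), SAC51 (1.18) and the zinc finger gene AT1G08050 (1.03). The product name of AT1G08050 also matched the words for ubiquitin-system proteins, so its place among the regulators is uncertain. ICE1, a bHLH factor of cold responses and stomatal development, had 19.9, 24.6 and 19.9 CPM at 1 h, 13.0, 13.2 and 12.8 CPM at 2 h, 11.3, 12.3 and 12.4 CPM at 4 h, and 14.6, 10.7 and 11.2 CPM in controls. MYB109 had 30.5, 33.4 and 28.6 CPM at 1 h, 21.4, 20.3 and 19.9 CPM at 2 h, 14.3, 14.2 and 12.7 CPM at 4 h, and 16.0, 17.7 and 16.0 CPM in controls. By edgeR, MYB109 was 0.36 ± 0.09 higher at 2 h than in controls (adjusted p = 0.0052). It was 0.57 ± 0.09 lower at 4 h than at 2 h (adjusted p = 0.0015). The rule chose a high 1 h level and held the 4 h level near the control, so the direction of that fall follows largely from the choice. MYB56 (BRAVO), which represses divisions in the quiescent centre, was 0.49 ± 0.10 higher at 2 h than in controls (adjusted p = 0.0019). Its 1 h ratio of 0.61, however, was 0.54 without replicate 1. AGO10, an Argonaute protein that sequesters miR165 and miR166, had 62.6, 61.9 and 54.7 CPM at 1 h, 44.7, 41.8 and 44.7 CPM at 2 h, 39.3, 40.8 and 40.9 CPM at 4 h, and 36.5, 32.1 and 30.9 CPM in controls. AGO10 was 0.45 ± 0.07 higher at 2 h than in controls (adjusted p = 0.00025), and its 4 h ratio of 0.28 lay near the upper bound.

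By product name, kinases and receptors numbered 16 (11.5%, against 6.28% of the 17491 loci). The 16 include MAKR5, described above as a membrane-associated protein. At 2 h, 6 of the 16 were called higher, where 26.6% of the 139 and 16.5% of all loci tested were. CRK1, a kinase related to calcium-dependent protein kinases, had 74.2, 67.2 and 51.7 CPM at 1 h, 31.9, 31.2 and 34.3 CPM at 2 h, 23.8, 28.2 and 24.2 CPM at 4 h, and 30.2, 28.7 and 27.6 CPM in controls. Its 2 h change was 0.22 ± 0.10 (adjusted p = 0.094, or 0.017 with only the groups compared), and it lay 0.35 ± 0.10 lower at 4 h than at 2 h (adjusted p = 0.047). The direction of that fall follows largely from the bound that the rule set on the 4 h level. Of the 8 CRK genes, CRK1 and CRK3 (1 h ratio 0.94) met the rule. At 1 h, 4 of the 8 were higher and 1 lower, where 5.03% and 4.59% of all loci tested were. At 2 h, 1 was higher and 4 lower (16.5% and 18.5% of all loci). At 4 h, 2 were higher and 3 lower (24.7% and 25.6% of all loci). The leucine-rich repeat kinase gene AT5G63710 had 41.0, 26.7 and 25.1 CPM at 1 h, 14.8, 14.4 and 14.4 CPM at 2 h, 11.5, 11.5 and 13.7 CPM at 4 h, and 12.8, 13.4 and 13.98 CPM in controls. Every 2 h library of AT5G63710 was above every control, but the change of 0.17 ± 0.14 was not called (adjusted p = 0.38). PXC3 (AT2G41820), a receptor-like kinase correlated with the vascular receptor PXY, was 0.25 ± 0.07 higher at 2 h than in controls (adjusted p = 0.012). That call was lost without control replicate 3 (adjusted p = 0.069). AT5G14210, another leucine-rich repeat kinase, was 0.51 ± 0.08 higher at 2 h than in controls (adjusted p = 0.00022).

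Genes of defence, transport and metabolism were also among the loci. RPS2, a receptor of bacterial effectors, had the highest 1 h ratio of all (2.56). It had 13.7, 23.0 and 16.3 CPM at 1 h, 15.1, 13.6 and 11.8 CPM at 2 h, 1.89, 3.21 and 4.71 CPM at 4 h, and 2.31, 3.38 and 2.08 CPM in controls. On the opposite strand RPS2 overlaps the non-coding gene AT4G26095, which had 9.99, 0.662 and 1.51 CPM at 1 h, 0, 0.755 and 3.11 CPM at 2 h, 10.7, 9.10 and 7.54 CPM at 4 h, and 14.5, 15.7 and 13.9 CPM in controls. The sum of both loci had log2 ratios of 0.32 (1 h), -0.22 (2 h) and -0.47 (4 h). RPS2 also overlaps the protein-coding gene AT4G26100 on the opposite strand, which is not in the sum. The strand setting of the counting is not given in the sources used here, so the value of RPS2 is uncertain. Other loci named here overlap genes on the opposite strand too, among them SAC51, CRK1, CRK3, IAA27, FKD1, MYBR1, TCP3 and NAC083. The part of such overlaps in their values was not tested. Among transport genes, FUR1 (ENT3), a nucleoside transporter, had 36.9, 31.0 and 28.3 CPM at 1 h, 16.4, 14.7 and 14.5 CPM at 2 h, 14.4, 17.2 and 13.8 CPM at 4 h, and 13.7, 14.8 and 14.2 CPM in controls. The ABC transporter gene ABCG22 (1.14), UMAMIT31 (1.00) and the mitochondrial carrier gene mSFC1 (0.87) also met the rule. MLP328 shows how far a value can rest on replicate 1. It had 205, 102 and 69.9 CPM at 1 h, 84.4, 82.3 and 51.0 CPM at 2 h, 45.0, 43.0 and 63.6 CPM at 4 h, and 59.6, 43.0 and 61.7 CPM in controls, and its 1 h ratio of 1.19 was 0.64 without that library. Of the other large 1 h ratios, the glycosyltransferase gene AT2G16890 and the transferase gene AT5G51920 had 1.49 each, and the ARM repeat gene AT5G09800 had 1.35. All of these were called higher at 2 h (0.77, 0.76 and 0.52), with adjusted p-values of 0.030, 0.015 and 0.046, and without 2 h replicate 2 none of the 3 calls held. Over the alternatives their adjusted p reached 0.12, 0.091 and 0.14.

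The 2 h libraries entered the choice only through the mean of at least 2 CPM over all 12 libraries, but the controls they are set against were used in it. The rule favours loci with low control values, which makes higher calls at 2 h likelier and lower calls rarer. It also leaves out loci far from the control at 4 h, so the shares over all loci are not a like measure. How far the choice shaped the counts below, and the 2 h changes and p-values of single loci, was not tested. edgeR called 37 of the 139 loci higher at 2 h (26.6%), where 16.5% of the 19733 loci tested were called higher. It called 0 of the 139 lower, where 18.5% of all loci were called lower. At an unadjusted p under 0.05 there were 3 lower, and DESeq2 called 0 lower at the adjusted threshold. The median change of the 139 was 0.20 on the log2 scale, against -0.01 over all loci tested. Counts were 34 of 88 higher and 0 lower among the loci also found without 1 h replicate 1, and 22 of 53 higher and 0 lower among those found without any 1 library. With library totals in place of TMM factors, 24 of the 139 were higher and 1 was lower. Left out singly, 2 h replicate 1 or control replicate 2 brought the higher count to 23, and control replicate 3 the lower count to 2.

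In CPM, the 2 h libraries lay above all controls at 44 of the 139 loci (31.7%, against 22.5% of the 17491) and below all controls at 8 (5.76%, against 33.1%). The choice of loci with low control values bears on both counts. The 2 h libraries lay below all 1 h libraries at 119 (85.6%, against 29.5%), but the 1 h libraries had been chosen as high, and nothing is read from that count. Relative to the control mean, the median locus had 12.4% of its 1 h excess at 2 h, and 16 of the 139 had over 50%. The 1 h and control values in these shares chose the loci, so the shares are a description. The choice of high 1 h values can make them too low, and that of low control values too high. Of the 16 loci, 12 were called higher at 2 h. RPS2, MYB56, WRI4, RIPK and ACS6 (the last not called) were among the 16, with values between 53.1% and 72.3%. The highest share, 90.8%, was that of AT3G02770, which had 54.8, 62.0 and 68.0 CPM at 1 h, 60.7, 63.5 and 54.6 CPM at 2 h, 43.4, 40.9 and 43.7 CPM at 4 h, and 38.3, 41.2 and 40.2 CPM in controls. It was 0.63 ± 0.09 higher at 2 h than in controls (adjusted p = 0.00013).

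**Figure D4:**
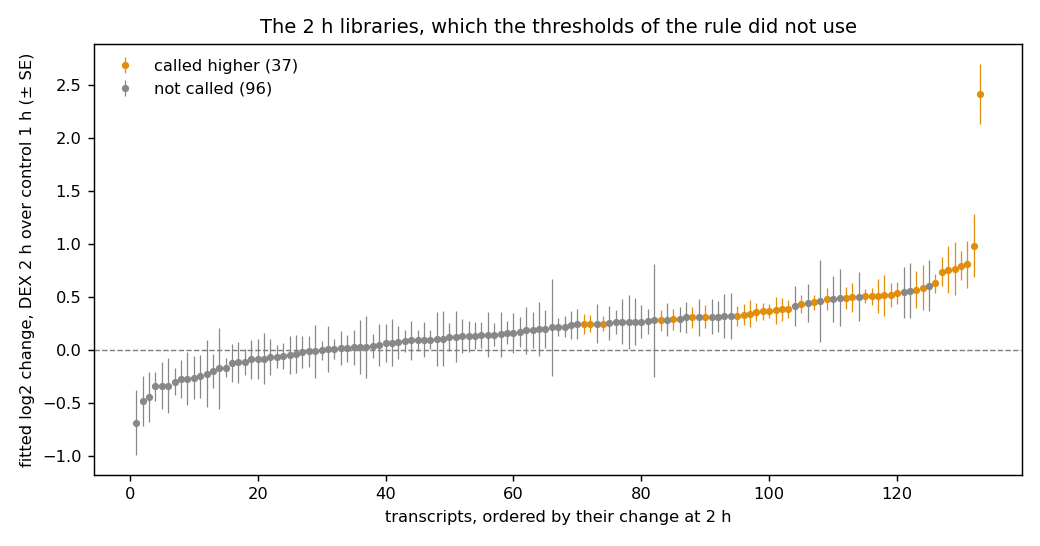
Fitted log2 change at DEX 2 h over the control (edgeR, with its SE) for 133 transcripts in order of size. The 37 called higher are drawn in orange and run from 0.25 to 2.42, the highest being RPS2, and none was called lower.

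Further loci held a part of their excess at 2 h. MLO8, a membrane protein of the family that sets powdery mildew resistance, had 61.1, 47.3 and 46.0 CPM at 1 h, 34.7, 37.0 and 36.6 CPM at 2 h, 25.7, 33.1 and 35.3 CPM at 4 h, and 24.8, 26.6 and 25.7 CPM in controls. It was 0.54 ± 0.10 higher at 2 h than in controls (edgeR, adjusted p = 0.0011). FKD1 had 34.7, 29.7 and 29.8 CPM at 1 h, 22.8, 24.1 and 24.6 CPM at 2 h, 21.2, 21.6 and 23.8 CPM at 4 h, and 19.3, 19.7 and 18.4 CPM in controls. All its DEX libraries lay above all its controls, and it was 0.37 ± 0.08 higher at 2 h than in controls (adjusted p = 0.0021). The mitochondrial carrier gene mSFC1 had 73.5, 71.5 and 77.3 CPM at 1 h, 52.6, 52.0 and 47.6 CPM at 2 h, 45.6, 50.8 and 40.6 CPM at 4 h, and 39.8, 40.8 and 40.0 CPM in controls. Its 2 h change against the control was 0.39 ± 0.08 (adjusted p = 0.0026). AT3G26750, named in RefSeq for a HECT-like ubiquitin-conjugating enzyme, had 11.5, 11.4 and 9.73 CPM at 1 h, 9.15, 7.23 and 9.13 CPM at 2 h, 6.58, 5.14 and 6.29 CPM at 4 h, and 5.35, 5.43 and 5.01 CPM in controls. It was 0.74 ± 0.13 higher at 2 h than in controls (adjusted p = 0.00066), and 58.0% of its 1 h excess was still there. RIPK, a kinase of the immune regulator RIN4, had 19.3, 17.7 and 13.1 CPM at 1 h, 15.2, 14.7 and 13.0 CPM at 2 h, 5.44, 11.6 and 11.5 CPM at 4 h, and 9.27, 8.96 and 11.3 CPM in controls. Its call at 2 h (0.59 ± 0.21, adjusted p = 0.049) was lost in 8 of 12 alternatives, among them each 2 h library left out, with an adjusted p of up to 0.15.

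The largest 2 h changes were those of RPS2 (2.42), AT5G38790 (0.99), the terpene synthase gene TPS-CIN (0.81), AT5G65300 (0.80) and AT2G16890 (0.77). AT5G65300 had 21.8, 19.1 and 19.7 CPM at 1 h, 16.9, 17.8 and 22.0 CPM at 2 h, 9.76, 13.5 and 16.6 CPM at 4 h, and 11.4, 10.7 and 11.6 CPM in controls. TPS-CIN lost its call without 2 h replicate 2 or control replicate 2, and AT5G38790 lost it without 2 h replicate 3, control replicate 2 or control replicate 3. At the low end, 5 genes had negative changes that were not called, namely TCP3 (-0.68), the sucrose transporter gene SWEET13 (-0.48), AT1G17090 (-0.44), NAC097 (-0.34) and AT4G22758 (-0.33). TCP3, a regulator of organ growth, had 7.14, 4.05 and 4.19 CPM at 1 h, 2.14, 1.85 and 1.04 CPM at 2 h, 2.76, 2.79 and 1.44 CPM at 4 h, and 2.91, 2.93 and 2.60 CPM in controls. Its 2 h libraries were all below the controls (adjusted p = 0.095), and it was called lower with a replicate block (adjusted p = 0.036) and with only the groups compared (0.0499). NAC097 (adjusted p = 0.063) was called lower in 5 of 12 alternatives, the replicate block among them (adjusted p = 0.021). NAC083, a repressor of xylem vessel genes, had 106, 85.9 and 74.6 CPM at 1 h, 45.5, 48.3 and 40.7 CPM at 2 h, 55.9, 48.4 and 45.4 CPM at 4 h, and 64.1, 59.1 and 47.7 CPM in controls.

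Between 2 h and 4 h, 12 of the 139 loci fell further (8.63%, where 3.73% of all loci tested were lower) and 0 were higher (where 3.6% were). At an unadjusted p under 0.05, 3 were higher, and DESeq2 called 1 higher at the adjusted threshold. The rule held the 4 h mean close to the control mean, so a locus still high at 2 h had to lie lower at 4 h. The direction follows largely from the choice, and nothing is read from these counts. Leaving out each of the 6 libraries in turn brought the lower count to between 4 and 7, and only RPS2, MYB109 and AT3G02770 kept their call in every alternative run. HAM4 lost its call without any 1 of the 6 libraries. SMAX1 kept it without 2 h replicate 3 and CRK1 without 4 h replicate 2, but not without any of the other 5. The largest adjusted p over the alternatives was 0.19 for HAM4, 0.15 for SMAX1 and 0.17 for CRK1. Without 4 h replicate 2, 2 loci were called higher. Against the control, 9 of the 139 were called higher and 0 lower at 4 h (24.7% and 25.6% of all loci tested), which the rule had held within its bounds. The 9 include AGO10, CRK3, FKD1 (FORKED 1, which acts in vein patterning) and MLO8, with 4 h log2 ratios of 0.21 to 0.30 in these 4.

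Among the 6 most abundant loci at 1 h, beside BAM3 and MLP328, were AT5G52882, HL and MYBR1. AT5G52882, a nucleotide-binding protein gene, had 269, 251 and 219 CPM at 1 h, 195, 189 and 184 CPM at 2 h, 178, 188 and 178 CPM at 4 h, and 159, 151 and 144 CPM in controls. It was 0.37 ± 0.07 higher at 2 h than in controls (adjusted p = 0.0007). HL, a HAL2-like phosphatase gene, had 94.2, 95.9 and 93.1 CPM at 1 h, 69.6, 76.9 and 70.5 CPM at 2 h, 60.1, 66.2 and 63.4 CPM at 4 h, and 52.9, 54.0 and 51.2 CPM in controls. The groups of HL did not overlap at any time, and it was 0.51 ± 0.06 higher at 2 h than in controls (adjusted p = 3.6e-05). MYBR1 (MYB44), an early gene of handling and abscisic acid responses, had 167, 146 and 115 CPM at 1 h, 96.3, 94.3 and 82.8 CPM at 2 h, 90.7, 78.2 and 69.2 CPM at 4 h, and 112, 93.0 and 72.4 CPM in controls. Its change at 2 h was 0.03 ± 0.17 (adjusted p = 0.92), and its 1 h ratio of 0.62 was 0.49 without replicate 1. ACS6, a synthase of the ethylene precursor, had 56.6, 61.9 and 52.2 CPM at 1 h, 42.1, 48.9 and 47.8 CPM at 2 h, 20.3, 40.2 and 42.7 CPM at 4 h, and 29.2, 35.3 and 38.5 CPM in controls. Its 2 h change was 0.48 ± 0.22 (adjusted p = 0.12), which was called with a replicate block (adjusted p = 0.034) and with only the groups compared (0.0027).

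The 11 hormone and stress lists hold 133 genes, of which 108 averaged at least 2 CPM. Of these, 2 met the rule (1.85%, against 0.795% of the 17491 loci). MYBR1 was the only one of 22 touch and wound genes, and ACS6 the only one of 12 ethylene genes. Of the 22 touch and wound genes, 2 were higher and 0 lower at 1 h, and 4 were higher and 2 lower at 2 h. These counts are near the shares over all loci tested, which were 5.03% higher and 4.59% lower at 1 h, and 16.5% and 18.5% at 2 h. Of the ethylene genes, 11 were tested, with 1 higher and 0 lower at 1 h, and 2 higher and 1 lower at 2 h. None of 16 early auxin genes, 13 jasmonate genes, 16 clock genes, 10 type-A response regulators, 8 hypoxia genes, 9 heat genes, 11 nitrate genes, 10 abscisic acid genes or 6 brassinosteroid genes met the rule. For the 13 early auxin genes tested, 2 were higher and 2 lower at 1 h, and 1 was higher and 5 lower at 2 h. Of the 8 heat genes tested, 4 were lower and 0 higher at 1 h (median change -0.85), and 4 were higher and 0 lower at 2 h (median 0.66). Of the 8 hypoxia genes, 1 was higher at 1 h and 7 at 2 h, with 0 lower at either time (medians 0.31 and 1.38). For the 9 abscisic acid genes tested, 2 were higher and 1 lower at 1 h, and 0 were higher and 4 lower at 2 h. The other 5 lists each had 0 or 1 genes higher and 0 to 2 lower at 1 h, and 0 to 4 higher and 1 to 3 lower at 2 h.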

How the data were processed

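RNA from root tips was sequenced from 12 libraries made with the TruSeq Stranded mRNA kit, per the labels' protocols. The deposited files hold estimated counts per locus with no scaling for depth, made by the authors. The submitters' processing notes name CASAVA, GSNAP, HTSeq and edgeR and the build TAIR10, with no roles, and the strand setting is not given in the sources used here. Between 82.2% and 83.3% of values per library were whole, and counts were rounded before testing.

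The 139 loci, the lists and the genes named were chosen with earlier results of these data known. Genes named by rule were the 15 largest 1 h ratios, the 6 highest 1 h levels, members of the lists, the 5 largest and 5 smallest 2 h changes, the loci next to each threshold and up to 3 per role. Other genes, and the lists of protophloem, SAC51, auxin transport, SMAX1, HAM and CRK genes, were chosen after their values were seen. A locus that the rule also names is not reported here, though it stays in the counts.

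Counts were tested in edgeR 4.0.16 (R 4.3.3) by the quasi-likelihood test with TMM factors, filterByExpr (minimum count 10, minimum total count 15) and group as the only term over all 12 libraries. P-values were adjusted by Benjamini-Hochberg over the 19733 loci tested and called under 0.05. The ± values are standard errors of log2 changes. The common biological coefficient of variation was 8.80%. CPM used the library totals without TMM factors. Alternatives were DESeq2 1.42.0, other scalings, no filter, a replicate block, only the groups compared and leaving out each library. Labels call the samples biological repeats. Of the 28775 loci, 28009 were matched in RefSeq TAIR10.1 by locus tag, which supplied names, gene structure and upstream sequence.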

Additional observations from a re-analysis of the deposited data

Results flagged for a closer look

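For 12 of the 139 loci, the change against the shared control differed between 4 h and 2 h of DEX, tested directly as DEX 4 h over DEX 2 h by edgeR's quasi-likelihood test. All 12 were lower at 4 h. The rule that chose the loci held their 4 h mean close to the control mean, so a locus still high at 2 h had to lie lower at 4 h, and the direction is no finding. RPS2 was lower by the widest margin, with a log2 change of -2.03, and its value is uncertain because of the overlapping genes on the other strand. The transcription factor genes WRI4, MYB109 and HAM4 had changes of -0.72, -0.57 and -0.51. AT3G26750 and AT5G65300 had -0.50 each, AT3G02770 had -0.48 and SMAX1 (AT5G57710) had -0.42. CRK1 (-0.35), AT4G09160 (-0.34) and AT1G33110 (-0.28) were also lower. WRI4 had 7.68, 10.2 and 12.9 CPM at 2 h, an uneven spread, and 6.15, 6.07 and 6.36 CPM at 4 h.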

How the results depend on the processing

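The choice of loci depended most on its own limits. A 1 h ratio of at least 1 left 23 loci and a 4 h bound of 0.15 left 69, and leaving out 1 library gave 102 to 223. TMM-scaled CPM found 116 loci (112 shared), a pseudocount of 1 CPM 128, no filter 181, allowed overlap 162 and fitted edgeR changes 124. At 2 h, library totals gave 24 loci higher, 1 lower and a median of 0.147, and the other 5 whole-data alternatives kept the higher count within 1.5 times. The replicate block gave 3 lower, and fitting only the 2 groups gave 2 lower. Leaving out 1 library gave 23 to 30 higher, 0 to 2 lower and a median of 0.152 to 0.241. The loci that the rule also finds with DEX 1 h replicates 2 and 3 had a median of 0.269. Between 4 h and 2 h, DESeq2 called 1 locus higher, and leaving out 1 library gave 397 to 1441 calls over all loci, 4 to 7 of the 139 lower and 0 to 2 higher. MYBR1, not called in any of these, changed sign at 2 h with library totals (-0.023) and ranged from -0.121 to 0.189 without 1 library. The cause of these shifts was not tested. Of the 37 calls at 2 h, 16 were kept in all 12 alternatives, and 3 of the 12 calls between 4 h and 2 h. Same-numbered replicates deviated with correlations of -0.10 to 0.14. With 3 libraries per group these cannot decide whether the numbers pair the samples. The replicate block gave 40 higher at 2 h and 14 lower between 4 h and 2 h. Over all loci it gave 7043 calls at 2 h (6915 without it) and 1669 between 4 h and 2 h (1447 without it). The 3 libraries per group limit what small changes can be called at these depths.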

Other observations

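The 133 matched genes had fewer exons than the 17261 protein-coding genes that averaged at least 2 CPM, with a median of 3 against 5, and 26.3% against 13.9% had 1 exon. Median transcript length was near that of the rest, 1785 against 1734 bases. Chromosome 5 held 47 of the 133 (35.3%, against 23.7% of the loci with at least 2 CPM that RefSeq places), and chromosome 1 held 24 (18.05%, against 26.2%). Genes of ribosome and RNA processing by product name made up 2.16% of the 139 loci, against 5.00% of the 17491 loci. These are descriptions, and none was tested.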
